A study of Mus musculus with 4 samples.

Results

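The p53 pathway and the cell-cycle inhibitors that mark senescence were examined in cells of mouse subcutaneous fat labelled positive or negative for Mmp3. The 10 genes were taken by name: the transcription factor gene Trp53, its regulators Mdm2 and Mdm4, the target genes Cdkn1a, Ccng1, Gadd45a, Phlda3 and Sesn2, and the Ink4 inhibitor genes Cdkn2a and Cdkn2b. All 10 were found among the 35580 genes of the tables, and 9 had enough counts to be tested among 14185 genes. Both groups came from wild-type (WT) C57BL/6 mice and consisted of stromal vascular fraction (SVF) cells, which remain when the adipocytes of fat are removed. They were labelled Mmp3-positive or Mmp3-negative, after the gene of a secreted matrix metalloproteinase, and the sources used here name only a reagent code for the separation and neither an age nor a treatment. There were 2 libraries of total RNA per group, replicates 1 and 2, with 17693755 to 20286221 estimated counts each. Since the labels do not tie the replicates to different animals, a p-value here reflects the variation among these libraries alone, and that may be technical.

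p53 is a transcription factor that is kept low in unstressed cells. Mdm2 marks it for degradation and Mdm4 blocks its activity. DNA damage and other stresses release p53, which then switches on genes for growth arrest, repair and death, and Mdm2 itself, which closes a negative feedback loop. Cdkn1a encodes the Cip1 inhibitor of cyclin-dependent kinases and is the classical arrest target. Cdkn2a encodes the Ink4a kinase inhibitor and, from a separate first exon, Arf, which holds Mdm2 back. Its neighbour Cdkn2b encodes Ink4b, a second inhibitor of the kinases Cdk4 and Cdk6 that is inducible by TGF-beta. In adipose stroma these inhibitors are studied for their part in progenitor growth arrest and ageing.

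The windows around the start sites of these genes, 250 bases before to 50 after, were read from RefSeq (GRCm38.p6). They were searched for the 10-base p53 half-site, which reads the same on both strands. A full p53 element is 2 half-sites 0 to 13 bases apart, found in 0.073% of all 32851 windows. There were 13 windows for the 10 genes, and 5 windows, of 5 genes, held a half-site match, against 8.36% of all 32851 windows. A match is only a description of these letters. The upstream of 2 Cdkn1a windows, chr17:29090729-29091028 on the plus strand, held 2 matches, 73 and 51 bases before the start, spaced as in a full element. The bases right after the match at 51, tgacatgttc, differ from the half-site only in the first letter and were not marked. That window is shown because the transcripts that begin there are described below. The Mdm2 window, chr10:117710709-117711008 on the minus strand, had 1 match and is shown because Mdm2 was the more abundant of the genes whose groups did not overlap. The Cdkn2b window, chr4:89310983-89311282 on the minus strand, had 0 matches to the p53 half-site and is shown because Cdkn2b differed most. Capitals mark the p53 half-site in the first pair of windows. In the Cdkn2b window they mark the GC box (GGGCGG or its reverse complement CCGCCC), which 35.7% of all windows held.
Cdkn1a: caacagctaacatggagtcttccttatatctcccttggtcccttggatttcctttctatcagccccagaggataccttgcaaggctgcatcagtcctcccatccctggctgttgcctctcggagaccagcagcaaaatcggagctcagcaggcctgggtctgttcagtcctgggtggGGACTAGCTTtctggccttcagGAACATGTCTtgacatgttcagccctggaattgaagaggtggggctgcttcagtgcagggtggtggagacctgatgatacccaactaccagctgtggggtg
Mdm2: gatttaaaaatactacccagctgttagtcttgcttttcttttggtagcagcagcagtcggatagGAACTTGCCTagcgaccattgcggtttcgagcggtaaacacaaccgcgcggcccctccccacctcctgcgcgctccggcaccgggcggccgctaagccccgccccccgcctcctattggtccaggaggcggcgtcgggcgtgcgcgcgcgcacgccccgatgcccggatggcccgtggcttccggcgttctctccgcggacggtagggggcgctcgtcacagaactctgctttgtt
Cdkn2b: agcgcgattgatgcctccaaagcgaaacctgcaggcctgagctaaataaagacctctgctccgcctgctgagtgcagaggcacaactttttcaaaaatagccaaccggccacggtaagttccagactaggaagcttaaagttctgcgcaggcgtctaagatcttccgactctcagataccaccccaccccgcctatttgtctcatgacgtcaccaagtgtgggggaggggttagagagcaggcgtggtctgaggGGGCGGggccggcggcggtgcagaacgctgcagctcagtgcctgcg
The other matches were a single half-site each, shown to compare them with those above. They lay 75 bases before the start in Trp53, 185 in Ccng1 and 40 in Gadd45a.
Trp53: GGACTTGCCC
Ccng1: GGGCAAGCCT
Gadd45a: GGGCTAGCCC

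Of the 9 genes tested, 0 passed the threshold of an adjusted p of 0.05 in edgeR's quasi-likelihood test. Across all genes, 0.00705% were called higher and 0.0141% lower in Mmp3-positive cells, so few calls were made anywhere. At an unadjusted p under 0.05 there were 2 of the 9, Mdm2 and Cdkn2b, both on the higher side, where 5.62% of all genes tested lay, against 3.25% on the lower. The same pair was called by DESeq2's Wald test, which called 2.48% of its genes higher and 2.92% lower, and 0 members were called by limma on log2(TPM + 1). Both libraries of the Mmp3-positive group lay above both of the other in Mdm2 and Cdkn2b, against 22.5% of all genes tested, and below in 0 members, against 17.3%. The median log2 fold change was 0.13 over the 9 members and 0.02 over all genes tested. For 7 of the 9 the absolute log2 fold change was under 0.3, as it was for 31.7% of all genes. Levels below are CPM, counts relative to the library size after TMM scaling, given as mean ± SD with n = 2 per group, and a log2 fold change is Mmp3-positive over Mmp3-negative.

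**Figure D1:**
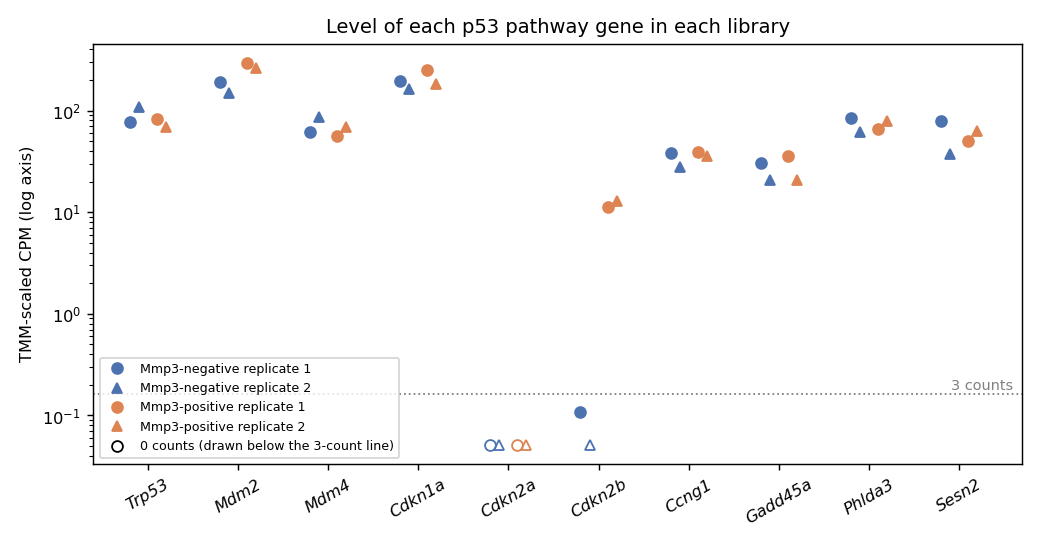
TMM-scaled CPM of the 10 genes on a log axis, with 1 point per library, Mmp3-negative in blue and Mmp3-positive in orange. Cdkn2b sits at 11.4 and 12.9 CPM in the Mmp3-positive libraries and at or below 0.108 CPM in the others, Cdkn2a is at 0 counts throughout, and the groups of the remaining genes lie close together.

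Cdkn2b, the Ink4b gene, was found almost only in the Mmp3-positive libraries. Mmp3-negative replicates 1 and 2 held 2 and 0 of its counts, whereas the Mmp3-positive replicates held 216 and 254. In CPM these were 0.108 and 0 against 11.4 and 12.9, so the groups did not overlap and the Mmp3-positive pair lay close together. With the libraries of each group pooled, 470 counts stood against 2, a ratio of CPM of 218 with an exact 95% interval of 60.1 to 1807 that covers counting error only. The fitted log2 fold change was 7.63 with a standard error of 2.33, and it did not pass (edgeR adjusted p = 0.480). Its size rests on 2 counts and on the tool's prior count. The DESeq2 adjusted p was 0.000107. Cdkn2b passed the filter on low counts through the Mmp3-positive libraries alone. Without Mmp3-negative replicate 1, which held both of the Mmp3-negative counts, the edgeR adjusted p was 0.0430 against a single library at 0 counts, which adds no support. That fit called 1.44% of its genes higher and 0.602% lower. The lone Mmp3-negative library is there assumed to vary like the Mmp3-positive pair.

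The gene (ENSMUSG00000073802) lies on chromosome 4 of GRCm38 from 89306299 to 89311039 on the minus strand. It has 1 transcript in the tables, so its value did not depend on how reads were shared among its transcripts. No other gene of the tables shared exon bases with it, nor with any of the other 9. A pattern as extreme was seen in 14 genes of the tables, Cdkn2b included, with at most 2 counts over the Mmp3-negative pair and at least 200 in each Mmp3-positive library. The opposite pattern was seen in 11 genes. Genes at 2 counts or fewer in 1 library and at 200 or more in the other of the same group numbered 750 in the Mmp3-negative pair and 88 in the Mmp3-positive pair. Such gaps were therefore common between the Mmp3-negative replicates.

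Cdkn2a, whose end lies 11645 bases from that of Cdkn2b, had 0 counts in all 4 libraries. This held for the transcript that starts at the downstream exon, Cdkn2a-201, and for the one that starts at the upstream exon, Cdkn2a-202. A count of 0 allows up to 3 counts per library, or 0.153 to 0.173 CPM. Ink4a and Arf transcripts were thus not detectable at this depth in either group, while Cdkn2b was counted in the Mmp3-positive one. The gene lies on chromosome 4 from 89274471 to 89294653 and was not tested.

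Mdm2, the ubiquitin ligase that restrains p53, had the highest mean TPM of the genes, the level per transcript length, with its noncoding transcripts included. It stood at 191 and 149 CPM in Mmp3-negative replicates 1 and 2 and at 294 and 265 CPM in Mmp3-positive replicates 1 and 2. The groups did not overlap. The means were 170 ± 29.4 and 279 ± 20.3 CPM, a ratio of 1.64, with 1.54 in set 1 and 1.77 in set 2. The log2 fold change was 0.71 with a standard error of 0.20 (edgeR adjusted p = 0.480, DESeq2 adjusted p = 0.00729). Among all genes tested, 58.9% had a smaller absolute log2 fold change. That share covers genes of every level, so it does not compare Mdm2 with genes as abundant as itself. Mdm2 (ENSMUSG00000020184) lies on chromosome 10 from 117688875 to 117710758 on the minus strand.

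The counts of Mdm2 were spread over transcripts that encode protein and others, such as retained introns, that do not. Coding transcripts stood at 69.6 and 67.2 CPM in the Mmp3-negative and at 109 and 101 CPM in the Mmp3-positive libraries. Other transcripts stood at 121 and 82.2 CPM against 184 and 164 CPM. Both classes thus lay higher in both Mmp3-positive libraries, with ratios of 1.53 and 1.71. Much of the second class was a retained-intron transcript within the gene, the most abundant one, with 1504 and 610 estimated counts in the Mmp3-negative and 2697 and 2648 in the Mmp3-positive libraries. How the coding counts divided was less stable: Mdm2-202 had 1422 estimated counts in Mmp3-positive replicate 1 and 0 in the other 3 libraries. The genes nearest to Mdm2 in pattern, by Euclidean distance of centred log2 CPM over the 4 libraries among 8451 genes, were Nup88 (0.0796), Hist1h4m (0.0804) and Rtf1 (0.0981).

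Mdm4, the relative of Mdm2 that inhibits p53 without degrading it, stood at 61.0 and 85.6 CPM in the Mmp3-negative libraries. It stood at 56.9 and 68.4 CPM in the Mmp3-positive ones, so the groups overlapped. The log2 fold change was -0.23 with a standard error of 0.31 (edgeR adjusted p = 0.998). Its coding transcripts stood at 61.0 and 43.8 CPM against 40.2 and 30.4 CPM, which did not overlap, at a ratio of 0.675 with no test. That gap rested on 1 of them, Mdm4-213, with 96.7 and 335 estimated counts in the Mmp3-negative and 5.33 and 38.3 in the Mmp3-positive libraries. Without Mdm4-213 the coding counts overlapped between the groups. The other transcripts of Mdm4 stood at 0 and 41.8 CPM in the Mmp3-negative replicates, and its TPM stood at 19.5 and 160 in them.

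Trp53 itself stood at 78.0 and 108 CPM in the Mmp3-negative and at 82.8 and 69.7 CPM in the Mmp3-positive libraries. The groups overlapped, and the means of 92.8 ± 21.0 and 76.2 ± 9.33 CPM differed by less than the wider SD. The log2 fold change was -0.28 with a standard error of 0.28 (edgeR adjusted p = 0.975). It was 1.06 times as high in the Mmp3-positive library of set 1 and 0.647 times in set 2, so the sets went opposite ways. Coding transcripts of Trp53 made up 89.7% and 55.4% of its counts in the Mmp3-negative and 91.3% and 69.9% in the Mmp3-positive libraries. In CPM the coding part was 69.9 and 59.7 against 75.6 and 48.7. The message of p53 was therefore no higher in either group beyond the replicate spread, by gene or by coding transcripts.

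**Figure D2:**
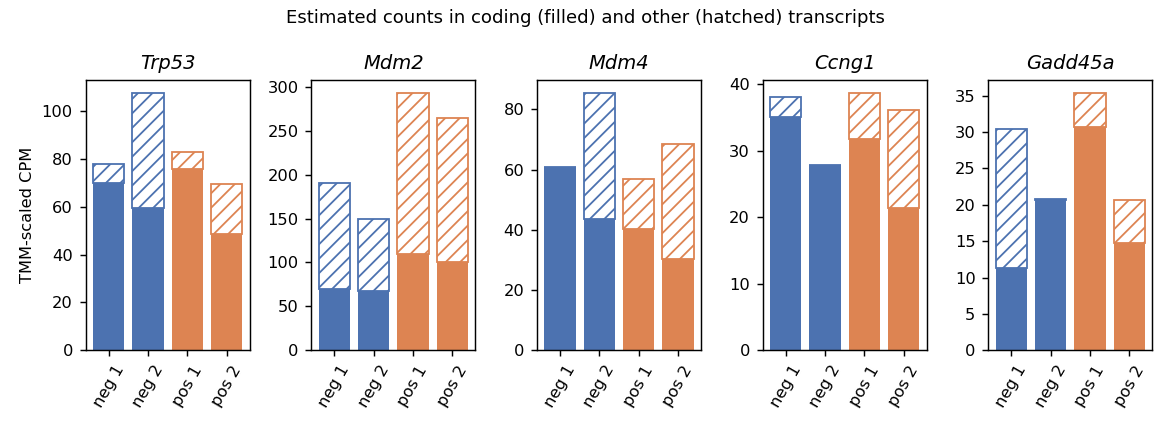
TMM-scaled CPM in coding (filled) and other (hatched) transcripts of 5 genes, with 1 bar per library, Mmp3-negative in blue and Mmp3-positive in orange. In Mdm2 both parts are taller in the Mmp3-positive libraries, whereas in Trp53, Mdm4, Ccng1 and Gadd45a the share of the hatched part differs between replicates of 1 group.

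Cdkn1a, the main arrest target of p53, stood at 194 and 162 CPM in the Mmp3-negative libraries. It stood at 251 and 183 CPM in the Mmp3-positive ones. The groups overlapped, although the Mmp3-positive library was higher in each set, by 1.29 and 1.13 times. The log2 fold change was 0.28 with a standard error of 0.23 (edgeR adjusted p = 0.930). Cdkn1a (ENSMUSG00000023067) lies on chromosome 17 from 29090976 to 29100727 on the plus strand.

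The transcripts of Cdkn1a divided unevenly between replicates. Cdkn1a-202, which begins in the upstream window printed above, had estimated counts of 0 and 979 in the Mmp3-negative pair, replicate 1 first, and of 892 and 994 in the Mmp3-positive pair. Cdkn1a-201, which begins at the downstream start site, had 2811 and 67.4 against 3005 and 2032. Cdkn1a-205, which begins in the same downstream window, had 0 and 1097 against 0 and 301. In the Mmp3-negative pair Cdkn1a-201 was thus high in replicate 1, and Cdkn1a-202 and Cdkn1a-205 in replicate 2. The low count of Cdkn1a-201 in Mmp3-negative replicate 2 was therefore not a low count of the downstream start. The sum over the gene differed far less, at 3594 and 2810 counts. No comparison of start sites between the groups was made, since these splits varied within a group.

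The remaining targets did not separate the groups. Phlda3, a repressor of the kinase Akt, stood at 83.8 and 62.0 CPM against 65.8 and 78.5 CPM. Its log2 fold change was -0.02 with a standard error of 0.29. Sesn2, a sestrin that lowers mTOR signalling under stress, stood at 79.7 and 37.7 CPM against 50.5 and 62.4 CPM. The Mmp3-positive pair of Sesn2 lay inside the range of the Mmp3-negative pair. The ratio was 0.633 in set 1 and 1.66 in set 2, and the log2 fold change was -0.06 with a standard error of 0.43. Gadd45a, a DNA damage-inducible growth arrest protein, stood at 30.4 and 20.8 CPM against 35.4 and 20.6 CPM. In this sum over the gene, replicate 1 was the higher in both groups, and the log2 fold change was 0.13 with a standard error of 0.56. The coding transcripts of Gadd45a stood at 11.25 and 20.7 against 30.7 and 14.8 CPM. There replicate 2 was the higher in the Mmp3-negative pair, and the groups overlapped. The edgeR adjusted p was 0.999 for each of Phlda3, Sesn2 and Gadd45a.

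Ccng1, the cyclin G1 gene whose product takes part in the feedback on Mdm2, gave different pictures in its units. In CPM it stood at 38.03 and 27.9 against 38.7 and 36.1, with a log2 fold change of 0.18 and a standard error of 0.41 (edgeR adjusted p = 0.999). In TPM it stood at 11.4 and 11.0 against 26.5 and 34.0, so the groups did not overlap (limma adjusted p = 0.737 on log2(TPM + 1)). The short noncoding transcript Ccng1-202 held the difference, with 55.1 and 0 estimated counts in the Mmp3-negative and 134 and 288 in the Mmp3-positive libraries. The coding transcript Ccng1-201 had 650 and 484 against 602 and 420 estimated counts. The cyclin-encoding part thus overlapped between the groups. With transcript lengths as an offset the log2 fold change of the gene was 1.14 (edgeR adjusted p = 0.735).

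**Figure D3:**
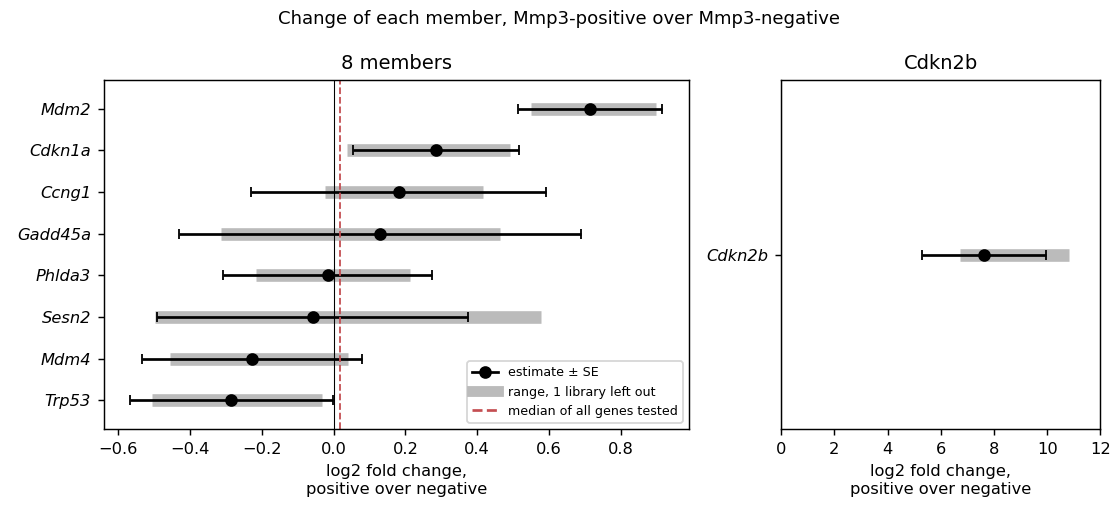
Log2 fold change of the 9 genes tested, Mmp3-positive over Mmp3-negative, as points with standard errors. Grey bands give the range when 1 library at a time was left out, and the dashed line is the median of all genes tested. Only the bands of Mdm2, Cdkn2b, Cdkn1a and Trp53 stay on 1 side of 0 here, Cdkn1a from 0.04 to 0.49 and Trp53 from -0.50 to -0.03.

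Per transcript length, in TPM averaged over the 4 libraries, Mdm2 (258) and Cdkn1a (180) came first. Their ranges, 165 to 398 and 97.1 to 256 TPM, overlapped. Mdm4 (83.0), Trp53 (67.1) and Phlda3 (63.3) followed, and their ranges overlapped as well. Gadd45a (37.3) lay below Phlda3 without overlap, at 26.4 to 47.3 against 49.8 to 71.5 TPM. It overlapped Trp53, at 34.8 to 110 TPM, Mdm4, at 19.5 to 160 TPM, and Ccng1, which reached 34.0 TPM. Trp53 and Mdm4 also reached into the range of Cdkn1a, so the order was only partly resolved. Ccng1 (20.7) and Sesn2 (18.7) overlapped, and Cdkn2b, at 0 to 12.2 TPM, lay below Sesn2, whose lowest level was 15.05 TPM. Cdkn2b overlapped Ccng1, which was at 11.4 and 11.0 TPM in the Mmp3-negative libraries. The place of Mdm2 rests on its noncoding transcripts, at 135 to 350 TPM. Its coding transcripts were at 17.9 to 47.7 TPM, below the range of Phlda3 and overlapping the 32.8 to 60.9 TPM of coding Trp53.

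Other genes of the pathway were taken from lists of its parts. Beside their counts at an unadjusted p under 0.05 stand 5.62% of all genes tested on the higher side and 3.25% on the lower. Among p53 regulators and partners, 0 of 20 tested passed in either direction, with 3 at an unadjusted p under 0.05 and a median log2 fold change of 0.15. DESeq2 called 1 higher, Usp7, the deubiquitinase of Mdm2 and p53, and 1 lower, the acetyltransferase Ep300. The ribosomal protein gene Rpl11, whose product can bind Mdm2, stood at 273 and 223 CPM against 261 and 247 CPM, a log2 fold change of 0.04 that flipped with DESeq2 size factors and with the length offset. The nuclear body gene Pml stood at 301 and 388 against 387 and 422 CPM.

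Among p53 targets for arrest and DNA repair, 0 of 14 passed (2 at an unadjusted p under 0.05), with a median of 0.01. Plk2, a polo-like kinase, stood at 327 and 351 CPM against 252 and 261 CPM, and DESeq2 called it lower. The replication clamp gene Pcna stood at 40.9 and 34.3 against 28.2 and 52.2 CPM. Among genes listed as targets for apoptosis and death 0 of 14 passed (1 at an unadjusted p under 0.05). Their median of 0.31 was 0.012 with the length offset and 0.13 without Mmp3-negative replicate 2. DESeq2 called 1 of them lower, Bcl2l11, the gene of the death protein Bim. Whether p53 controls the listed genes in these cells was not tested. The death effector gene Bax stood at 196 and 153 against 222 and 203 CPM, and the nuclease gene Aen at 158 and 174 against 221 and 236 CPM. Neither passed (edgeR adjusted p = 0.900 and 0.525), though in each the Mmp3-positive pair lay above the other.

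Among targets in metabolism and stress 0 of 15 passed (2 at an unadjusted p under 0.05), with a median of 0.10 that turned to -0.28 with the length offset, to -0.090 without Mmp3-negative replicate 1 and to -0.089 without Mmp3-positive replicate 1. DESeq2 called Ak1, an adenylate kinase gene, higher and Gdf15, a stress-induced secreted factor, lower. Cpt1c and Ephx1, the most abundant of that list, had log2 fold changes of 0.37 and -0.14. The direction of Cpt1c flipped with the length offset, where it was -0.032. The members of the p53 pathway outside the 10 genes thus lay on both sides of 0, in each of these 4 lists.

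A list of the relatives of Gadd45a and Sesn2 (Gadd45b, Gadd45g, Sesn1 and Sesn3) also held Gadd45gip1, which encodes a protein that binds Gadd45 and is no relative. Of these 5 genes 0 passed (1 at an unadjusted p under 0.05), and the median of 0.08 was the value of Gadd45gip1 itself. Gadd45b, an inducible stress sensor, stood at 91.6 and 120 CPM in the Mmp3-negative and at 41.2 and 31.5 CPM in the Mmp3-positive libraries. The groups did not overlap, and the log2 fold change was -1.54 with a standard error of 0.31 (edgeR adjusted p = 0.480, DESeq2 adjusted p = 3.45e-06). Gadd45g stood at 295 and 264 against 211 and 223 CPM, and DESeq2 called it lower too. Whether Gadd45a differed from Gadd45b in its change was not tested.

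The other inhibitors of cyclin-dependent kinases numbered 5, of which 0 passed (2 at an unadjusted p under 0.05), with a median of -0.55 that was 8.88 without Mmp3-negative replicate 1. Cdkn1b, the Kip1 gene, stood at 69.0 and 27.2 CPM against 13 and 11.8 CPM, without overlap. Its log2 fold change was -1.95 with a standard error of 0.61 (edgeR adjusted p = 0.480, DESeq2 adjusted p = 0.00776). Cdkn1c, the Kip2 gene, stood at 15.7 and 7.38 against 7.74 and 8.04 CPM. Another list held cyclin-dependent kinases, cyclins and pocket proteins, with the transcription factors E2f1, E2f3 and E2f4 that the pocket proteins bind. Of its genes 0 of 14 passed (1 at an unadjusted p under 0.05, 0 by DESeq2), with a median of 0.44. Cdk4, the main target of Ink4b, stood at 131 and 141 against 144 and 137 CPM, and the cyclin gene Ccnd2 at 254 and 232 against 269 and 231 CPM. Their log2 fold changes were 0.04 each, and both flipped with DESeq2 size factors. Cdkn3, a phosphatase that acts on cyclin-dependent kinases, and the cyclin gene Ccne2 had 0 counts in both Mmp3-negative libraries and 40 and 82, and 37 and 64, in the Mmp3-positive ones. Neither passed. Both entered the test through the Mmp3-positive libraries alone, so their unadjusted p under 0.05, counted above, adds no support. Both lie above the median of their list also at a floor of 3 counts per library, so that floor cannot move it.

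Of the proliferation markers 0 of 8 passed (2 at an unadjusted p under 0.05, 0 by DESeq2), with a median of 0.21. The replication licensing genes Mcm2 and Mcm5, the most abundant, stood at 71.4 and 83.8 against 113 and 129 CPM, and at 36.9 and 91.6 against 76.9 and 96.0 CPM. The groups did not overlap in Mcm2 and overlapped in Mcm5. With the length offset the log2 fold changes turned to -0.039 and -0.14. The mitotic cyclin genes Ccnb1 and Ccna2 had 1 and 0, and 0 and 0 counts in the Mmp3-negative libraries, against 61 and 47, and 13 and 45 in the Mmp3-positive ones. Both entered the test through the Mmp3-positive libraries alone. Ccna2 was 1 of the 2 genes at an unadjusted p under 0.05, which adds no support. Of the 8 tested, 4 had a log2 fold change above 0 and 4 below. Those below were Mki67 (-0.53), Top2a (-0.30), Aurkb (-0.002) and Birc5 (-0.94), of which only Birc5 had groups without overlap. Among those not tested, Bub1 had 0 and 47 counts against 0 and 0, and Cdk1 0 and 0 against 52 and 0. Of the genes associated with senescence 0 of 15 passed (3 at an unadjusted p under 0.05), with a median of 0.42. DESeq2 called Igfbp7 and Plaur, genes of a secreted binding protein and the urokinase receptor, higher and Gdf15 lower. The chemokine gene Ccl2 stood at 476 and 245 against 652 and 376 CPM, and its groups overlapped (edgeR adjusted p = 0.916). The Mmp3-positive library was the higher in each set, by 1.37 times in set 1 and 1.53 times in set 2.

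**Figure D4:**
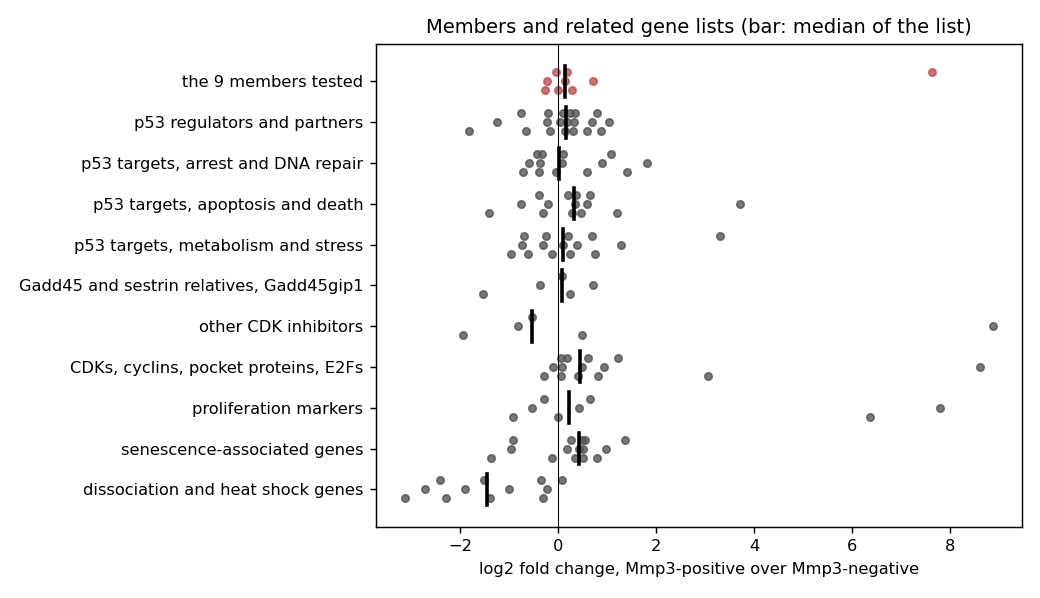
Log2 fold change, Mmp3-positive over Mmp3-negative, of the 9 members tested (red) and of the tested genes of each related list (grey), with a black bar at each median. The medians of the p53 lists lie between 0.01 and 0.31, and that of dissociation and heat shock genes at -1.46. Points beyond 6 come from genes with 2 or fewer counts in the Mmp3-negative libraries.

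Several of these genes respond to stress, and other features of the libraries moved with the groups. Of 12 genes of tissue dissociation and heat shock, 11 lay lower in both Mmp3-positive libraries than in both others, against 17.3% of all genes tested. Those that passed as lower were 2, Hspa1a and Hspa1b (edgeR adjusted p = 0.0250 and 0.0273), against 0.0141% of all genes. DESeq2 called 9 of the 12 lower, against 2.92% of its genes. The list summed to 9253 and 8924 CPM in the Mmp3-negative and to 3445 and 3507 CPM in the Mmp3-positive libraries. Summed marker levels were 746 and 664 against 103 and 96.0 CPM for mural cells, 268 and 203 against 109 and 107 for endothelial cells, and 211 and 127 against 34.6 and 31.3 for macrophages. They were 185 and 77.5 against 18.4 and 19.9 CPM for dendritic and antigen-presenting cells. The macrophage marker Adgre1 had 57 and 102 counts in the Mmp3-negative libraries and 0 in both Mmp3-positive ones, and the dendritic marker H2-Eb1 had 641 and 365 against 0 and 0. Cd163 had 177 and 0 against 0 and 0, Mrc1 0 and 0 against 0 and 29, and Flt3 0 in all 4 libraries. Stromal fibroblast markers summed to 19030 and 26480 against 26820 and 33280 CPM. Lymphocyte, mesothelial and adipocyte markers stayed at or below 41.3 CPM in sum. Of the mesothelial ones, Krt19 had 0 and 0 against 115 and 53 counts, and Msln 0 and 311 against 0 and 0. DESeq2 called Krt19 higher and Msln lower. The part of these differences in the values of Cdkn2b, Mdm2, Gadd45b and Cdkn1b was not tested, and in bulk libraries fewer cells of a type and less RNA per cell cannot be told apart. Mmp3 itself stood at 106 and 131 CPM in the Mmp3-negative and at 4161 and 3409 CPM in the Mmp3-positive libraries.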

How the data were processed

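Per the labels' protocols, total RNA came from a kit meant for formalin-fixed tissue and was made into strand-specific libraries after rRNA depletion. Per the submitters' processing notes, the authors quantified reads with kallisto 0.45.0 on GRCm38. The deposited tables hold an estimated count, a TPM value, a length and an effective length in bases for each of 115270 transcripts, per the file headers. The sources used here do not give the transcript set, strand setting or trimming.

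Of these, 113580 transcripts matched GENCODE M21 (GRCm38) by identifier, and the rest, 0.729% to 2.08% of the counts, were left out. Estimated counts and TPM were summed per gene, and the count sums were rounded. Genes passing filterByExpr (minimum count 10) were scaled by TMM and tested with edgeR 4.0.16 (R 4.3.3), two-sided, with Benjamini-Hochberg adjustment. A standard error is the fold change (log2) divided by the root of F, and 2 residual degrees of freedom remained. Alternatives used DESeq2 1.42.0 and limma 3.58.1. Fits were tested on simulated data. Python 3.11.15, pandas 2.3.3 and matplotlib 3.10.9 made sums and plots.

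The members and lists were chosen with earlier results of these data known. Named genes were all members and Mmp3, transcripts with 10% of a gene's TPM, up to 4 called or otherwise the 2 most abundant genes per list, and the 3 nearest to the member with the smallest p. Of marker lists sums are given, with the counts of Adgre1, H2-Eb1, Cd163, Mrc1, Flt3, Krt19 and Msln and the mesothelial median. A senescence list gene that the rule names is not reported here. Mdm2-202, Cdkn3, Ccne2, the proliferation markers other than Mcm2 and Mcm5, genes called by DESeq2 and markers at 0 were named after their values were seen. Gdf15 and Sesn1 are each in 2 lists.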

Additional observations from a re-analysis of the deposited data

How the results depend on the processing

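Of the 9 members, Mdm2, Cdkn1a and Cdkn2b kept their direction under all 13 alternatives. Mdm2 ran from 0.55 to 0.99 and passed with DESeq2 only. Cdkn2b ran from 3.67 to 10.82 and passed with DESeq2. It also passed without Mmp3-negative replicate 1, where the comparison is with a single library at 0 counts and gives no support. Members called higher numbered 2 with DESeq2 and 0 to 1 on leaving out a library, and 0 were called lower in every fit. The cause of these differences was not tested. Their median log2 fold change was 0.40 with limma on log2(TPM + 0.1) and ran from -0.023 to 0.42 on leaving out a library. With limma on log2(TPM + 1) the median of all genes moved from 0.02 to 0.29, with a pseudocount of 0.1 to 0.37 and with no filter on low values to 0.24, so values in TPM are to be read against these. It was 0.12 with the replicate block and 0.17 without either Mmp3-negative library.

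Over all genes, calls (higher, then lower) were 1 and 2 in the test reported, 4 and 23 without a filter on low counts, 452 and 532 with DESeq2, 1 and 4 with the replicate block, 1 and 0 with the length offset, 0 and 0 with each of the 3 limma fits, and 1 to 237 and 1 to 116 on leaving out a library, where the large counts came without an Mmp3-negative library. Over the 14185 genes tested, the deviations of same-numbered libraries had a correlation of 0.0261 (2 pairs). The median absolute log2 difference between replicates was 0.795 for Mmp3-negative and 0.501 for Mmp3-positive libraries. With 2 pairs and this spread, the correlation cannot decide whether the set numbers pair the libraries. The block called 0 members.

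Directions that turned belonged to genes that had not passed. With limma on log2(TPM + 1), with and without the filter, Mdm4 was 0.38, Gadd45a -0.080, Phlda3 0.28 and Sesn2 0.31. With log2(TPM + 0.1) they were 0.40, -0.083, 0.28 and 0.33, and Trp53 was 0.0002. With the length offset, Gadd45a was -0.31, Phlda3 0.028, Rpl11 -0.070, Pcna -0.16, Cpt1c -0.032, Ccnd2 -0.15, Mcm2 -0.039 and Mcm5 -0.14. With the block Sesn2 was 0.033. With DESeq2 size factors and with the DESeq2 test Rpl11 was -0.01 and -0.0096, Ccnd2 -0.0036 and -0.0033, and Cdk4 -0.0021 and -0.0017. Leaving out a library gave -0.46 to 0.041 for Mdm4, -0.023 to 0.42 for Ccng1, -0.31 to 0.46 for Gadd45a, -0.21 to 0.21 for Phlda3 and -0.50 to 0.58 for Sesn2. It gave -0.10 to 0.18 for Rpl11, -0.42 to 0.47 for Pcna, -0.39 to 0.16 for Ephx1, -0.99 to 0.091 for Cdkn1c, -0.070 to 0.14 for Ccnd2, -0.018 to 0.10 for Cdk4, -0.089 to 1.23 for Mcm5 and -1.83 to 3.36 for the mesothelial median. The median of the other kinase inhibitors ran from -1.12 to 8.88 on leaving out a library, was 2.61 with the block, and with limma was 0.79 on log2(TPM + 1) and 2.05 on log2(TPM + 0.1). On leaving out a library the other list medians ran from -0.024 to 0.43 for p53 regulators, -0.14 to 0.25 for arrest, 0.13 to 0.32 for apoptosis, -0.090 to 0.155 for metabolism, -0.44 to 0.74 for Gadd45 and sestrin relatives, 0.0085 to 0.52 for kinases and cyclins, -0.42 to 0.995 for proliferation and 0.059 to 0.66 for senescence. Protein-coding genes alone gave 1 and 2 calls. Depth limits Cdkn2a to 3 counts per library, and leaves the Mmp3-negative level of Cdkn2b resting on 2 counts.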
